A study of Mus musculus with 8 samples.

Results

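Cholesterol synthesis was examined through 8 genes, Hmgcs1, Idi1, Sqle, Lss, Cyp51, Dhcr7, Insig1 and Srebf2, chosen with earlier results of these data known. Every probe set that the platform annotation assigns to exactly 1 of these genes was taken, which gave 18 of 45037 probe sets for 8 of 18193 named genes. The hippocampus of male 3 × Tg-AD mice was profiled at 10 months of age. The RA group (n = 4 arrays) received a diet with 0.5% rosmarinic acid for 8 months, and the control group (n = 4 arrays) received the same diet without RA. All mice of both groups carried the amyloid precursor protein Swe, tau P301L and presenilin 1 M146V alleles, so that no array stands for a brain without these alleles. Hippocampi of 4 mice per group, picked for an average weight, went onto the arrays, but the protocol also mentions pooling of RNA, and the number of mice behind an array stayed unclear. The spread behind the p-values is that between arrays and may be technical.

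The adult brain makes nearly all of its own cholesterol, because lipoproteins of the blood do not pass the blood-brain barrier. Synthesis starts from acetyl-CoA, runs through mevalonate and the isoprenoid units to squalene, and ends with the conversion of lanosterol to cholesterol. The transcription factor SREBP-2, the product of Srebf2, drives the genes of this route together when sterols in the endoplasmic reticulum are low, and the Insig proteins hold it back when sterols are high. Astrocytes and myelinating oligodendrocytes are known as strong producers. None of the 8 genes encodes a receptor for the uptake of lipoproteins, so uptake was read only from the wider list of pathway genes.

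Each value is a FARMS summary on the log2 scale. FARMS draws a probe set to a nearly constant value where its probes share no variation over the arrays, also where the value itself is high. A probe set with an SD of at most 0.01 over the 8 arrays was therefore counted as unmeasured, and a nearly constant value is not evidence of equal transcript levels. Of the 18 probe sets, 16 were unmeasured, and 7 of the 8 genes had no measured probe set. The 16 had SDs between 9.42e-05 (Srebf2) and 0.000455 (a probe set of Cyp51), whereas the measured probe set with the lower SD, of Hmgcs1, stood at 0.125. No member probe set lay near the threshold on either side. Over the whole array 3758 probe sets (8.34%) were measured.

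**Figure D1:**
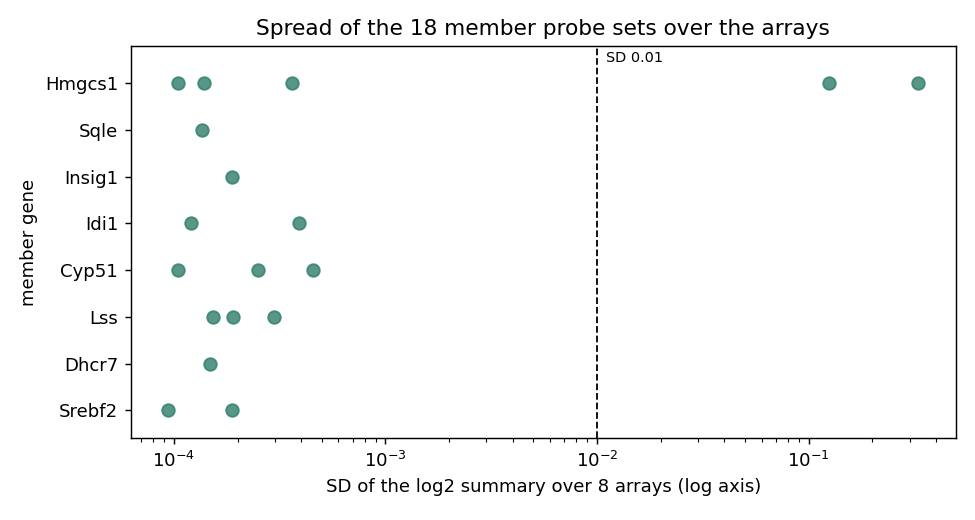
SD of the log2 summary over the 8 arrays (log axis) for each probe set of the 8 genes, 1 point per probe set, with a dashed line at 0.01. Of the points, 16 lie far to the left of the line and only 2, both of Hmgcs1, lie to the right, at 0.125 and 0.329.

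The enzymes after mevalonate gave no measure of a difference. Idi1, which isomerises the activated isoprene unit, had 2 probe sets, fixed at 6.87 and 7.60. Sqle, the epoxidase that takes squalene into the sterol branch, stood at 8.11 on every array, and the 3 probe sets of Lss, which closes the ring to lanosterol, stood between 5.69 and 6.59. Cyp51, the lanosterol demethylase, had 3 probe sets between 5.57 and 7.60, and Dhcr7, which acts in the final step of one arm of the route, stood at 7.16. The arrays are thus silent on whether any of these enzymes differed between the RA and control groups. The same held for the regulators. Insig1, whose protein holds the SREBP complex back when sterols are high, stood at 7.66, and the 2 probe sets of Srebf2 at 7.38 and 7.74. The difference between the group means was at most 0.000469 in size among the 16 unmeasured probe sets, and none was called.

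Hmgcs1 encodes the cytosolic HMG-CoA synthase, which makes HMG-CoA for the mevalonate pathway and is a classical SREBP target. Its upstream sequence is shown because it is the 1 member that the arrays measured. The 250 bases before its annotated start (RefSeq, GRCm38.p6, chr13:119690101-119690350, plus strand) read as follows, with capitals for matches to a sterol regulatory element (TCACNCCAC), a CCAAT box (CCAAT) or an Sp1 box (GGGCGG), each searched on both strands.
Hmgcs1: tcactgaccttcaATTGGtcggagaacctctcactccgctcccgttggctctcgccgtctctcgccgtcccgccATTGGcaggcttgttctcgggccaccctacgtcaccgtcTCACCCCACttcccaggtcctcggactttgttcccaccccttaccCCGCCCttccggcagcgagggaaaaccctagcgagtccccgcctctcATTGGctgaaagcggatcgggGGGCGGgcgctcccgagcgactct
The match to the sterol element begins 137 bases before the start, beside 3 CCAAT matches and 2 Sp1 matches, and no match overlaps another. A match to the sterol element is held by 1.05% of 32851 mouse promoter windows of this length, a CCAAT match by 33.8% and an Sp1 match by 32.7%. Of 7 member genes with a window in the table, 1 held the sterol element, Hmgcs1, and all 7 held a CCAAT and an Sp1 match in at least 1 window. These counts are per gene, with any of its windows allowed, whereas the shares are per window. Dhcr7, with several windows, had 1 that held neither a CCAAT nor an Sp1 match. A match describes the letters only, and the lack of a match says nothing about the factor.

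Hmgcs1 was represented by 5 probe sets, of which 2 were measured, and these 2 leaned in opposite directions. On the probe set 1433444_at, the log2 value was 9.24, 9.39, 9.61 and 9.05 in RA 1 to RA 4, against 9.60, 9.98, 9.97 and 9.67 in control 1 to control 4. RA 3 stood just above control 1, and apart from this pair every RA array lay below every control array. The groups did not overlap at all in 5.59% of the measured probe sets. The mean was 9.32 ± 0.238 (SD, n = 4) in the RA group and 9.81 ± 0.198 (SD, n = 4) in the control group, a log2 fold change of -0.49 with a standard error of 0.148 and a 95% interval of -0.84 to -0.13. This amounts to 0.714 times the control level. In bulk hippocampus, fewer cells of a type and less RNA per cell cannot be told apart.

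The rank product, which compares ranks over all pairs of an RA and a control array, called 1433444_at lower, with an estimated proportion of false positives of 0.000179 against a threshold of 0.05. It was the only call among the 18 probe sets. Over all 45037 probe sets the rank product called 0.577% lower and 0.908% higher, and all of these calls fell on measured probe sets, of which 6.92% were called lower and 10.9% higher. One call among 2 measured probe sets is thus too few to read against this background. Because the permutations mix measured and nearly constant probe sets, the proportion is not read as an error rate. In a test of the 3758 measured probe sets alone, which called 0.452% lower and 0.106% higher, it was 0.168, and the call was lost. limma gave an adjusted p of 0.391 for 1433444_at (unadjusted 0.0151). It called 0 of 45037 probe sets at an adjusted p under 0.05, while 4553 (10.1%) had an unadjusted p under 0.05, and the lowest adjusted p was 0.252. An exact permutation test on the group means gave a two-sided p of 0.0571, and 0.555 after adjustment over all probe sets, where 0.0286 is the smallest p that 4 against 4 arrays allow.

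On the probe set 1433443_a_at, whose suffix marks probes shared by transcripts of the same gene, the log2 value was 9.88, 10.23, 10.20 and 10.04 in RA 1 to RA 4, against 9.97, 9.96, 9.96 and 9.95 in control 1 to control 4. RA 2, RA 3 and RA 4 lay above all control arrays and RA 1 lay below all of them. The RA arrays were spread widely and the control arrays hardly at all, at 10.09 ± 0.159 (SD, n = 4) in the RA group and 9.96 ± 0.00747 (SD, n = 4) in the control group. The SD of the control arrays alone was under the limit of 0.01. This probe set thus counted as measured only through the RA arrays, and its lean is read with that limit. The log2 fold change was 0.13 with a standard error of 0.0763 and a 95% interval of -0.05 to 0.31. This probe set was not called (proportion of false positives 0.147, adjusted p = 0.61 from limma, exact permutation test two-sided p = 0.2).

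**Figure D2:**
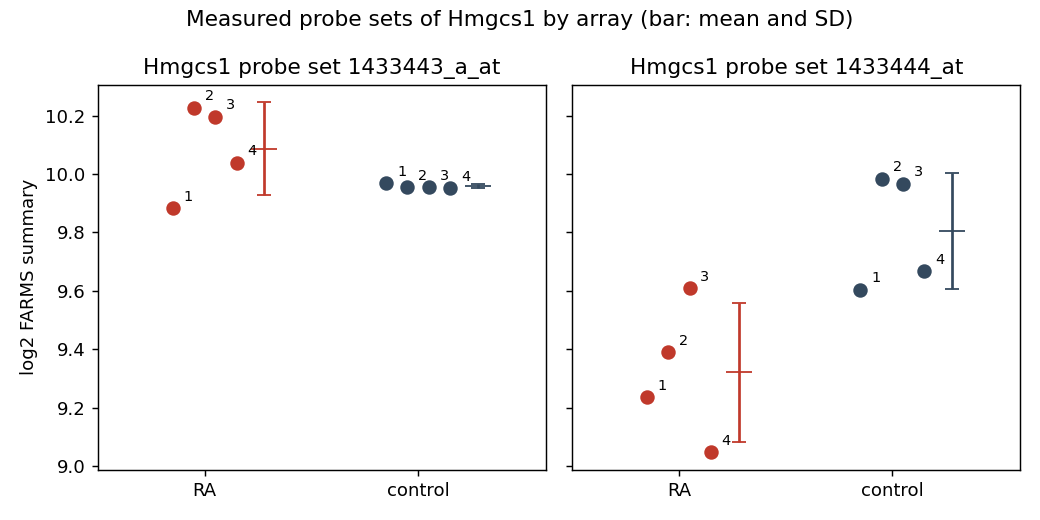
Log2 FARMS summaries of the measured Hmgcs1 probe sets by array (points numbered 1 to 4 within each group, bars for the mean and SD, n = 4). On 1433444_at the RA arrays lie at 9.05 to 9.61 and the control arrays at 9.60 to 9.98, whereas on 1433443_a_at the control arrays sit together near 9.96 and the RA arrays run from 9.88 to 10.23.

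The other 3 probe sets of Hmgcs1 were unmeasured. Of these, 1433445_x_at stood at 9.87 in both groups, 1433446_at at 8.81 and 1441536_at at 5.11. The sign of the Hmgcs1 log2 fold change therefore rests on which probe set is read. Of the 2, 1433443_a_at counted as measured only through the RA arrays, and its 95% interval of -0.05 to 0.31 shows no settled direction. The midpoint of the 2 measured log2 fold changes was -0.18, and the probe set with the higher mean, which would stand for the gene under a rule of 1 probe set per gene, gave 0.13. Across all 3758 measured probe sets the median log2 fold change was 0.069, and 73.1% lay above 0. Of the 3758, 47 (1.25%) had a log2 fold change at or below that of 1433444_at.

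The unequal behaviour of the 2 measured Hmgcs1 probe sets was looked at within each array, a comparison chosen after the values were seen and given without a test. The value of 1433443_a_at minus that of 1433444_at was 0.65, 0.84, 0.59 and 0.99 in RA 1 to RA 4, against 0.36, -0.03, -0.01 and 0.28 in control 1 to control 4. Every RA array lay above every control array, with a mean of 0.77 ± 0.184 (SD, n = 4) in the RA group and 0.15 ± 0.201 (SD, n = 4) in the control group. Because 1433443_a_at was nearly constant in the control arrays, the differences between those arrays mainly restate 1433444_at. The difference of 0.61 was 0.54 to 0.68 when any 1 array was left out. Over the 8 arrays the 2 probe sets had a Pearson correlation of -0.19 and a Spearman correlation of -0.26, given as a description of arrays that share a labelling and hybridisation protocol.

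Such disagreement was not confined to Hmgcs1. The measured probe sets form 1328 pairs of the same gene, in 655 genes. Log2 fold changes of opposite sign occurred in 277 pairs (20.9%), and the differences within arrays did not overlap between the groups in 115 pairs (8.66%). Both held in 60 pairs (4.52%). The size was less usual, since the median absolute difference between paired log2 fold changes was 0.0721, and 11 other pairs, in 9 other genes, differed by as much as the Hmgcs1 pair or more. Which part of the Hmgcs1 transcript each probe set reads was not analysed here.

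**Figure D3:**
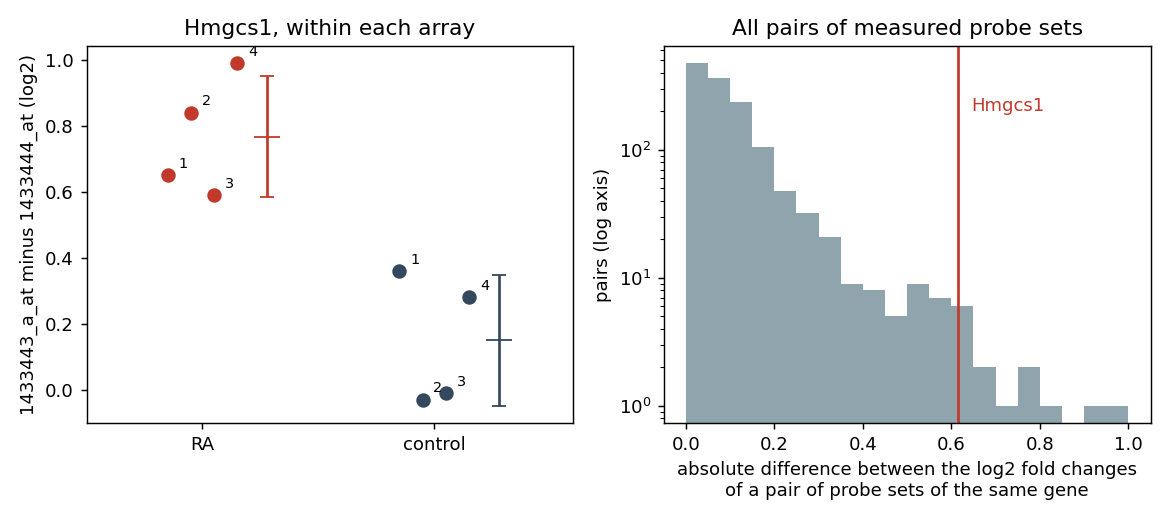
Left, the log2 value of 1433443_a_at minus that of 1433444_at in each array (points numbered 1 to 4, bars for the mean and SD, n = 4), with the RA arrays at 0.59 to 0.99 and the control arrays at -0.03 to 0.36. Right, the absolute difference between the log2 fold changes of each of 1328 pairs of measured probe sets of the same gene (counts on a log axis), with a line for Hmgcs1 at 0.61.

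The wider pathway was read from 4 lists with 47 genes, of which 38 had a probe set of their own and 10 had a measured one. With the probe set of the highest mean standing for a gene, 1 of the 38 was called higher, none was called lower and 37 were not called. Counted in the same way, 1.34% of all 18193 named genes were called higher and 0.511% lower. Of 81 probe sets 13 were measured. Their median log2 fold change was 0.10, beside 0.069 over all measured probe sets, and 11 of the 13 lay above 0, beside 73.1% over all measured probe sets.

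Of 11 other synthesis enzymes with a probe set, only Sc5d, the sterol desaturase of a late step, had a measured one, and none was called. Sc5d has another probe set with a higher mean that was unmeasured. On the measured one, 1434520_at, the log2 value was 7.45, 7.52, 7.48 and 7.63 in RA 1 to RA 4, against 7.29, 7.36, 7.42 and 7.61 in control 1 to control 4. The groups overlapped through control 4 alone, which lay above 3 RA arrays. The log2 fold change was 0.10, with a 95% interval of -0.08 to 0.28 (adjusted p = 0.695 from limma).

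Among 6 genes of SREBP regulation, Insig2, a paralogue of Insig1 that also retains the SREBP complex, was the only one with a measured probe set. On this probe set, 1417980_a_at, the log2 value was 7.05, 6.85, 6.95 and 6.99 in RA 1 to RA 4, against 7.02, 7.37, 7.47 and 7.30 in control 1 to control 4. Control 1 lay among the RA arrays, and the other control arrays lay above all of them. The log2 fold change was -0.33 with a standard error of 0.0994 and a 95% interval of -0.57 to -0.09, or 0.796 times the control level. The rank product called this probe set lower (proportion of false positives 0.00357), and limma did not (adjusted p = 0.386). The exact permutation test gave a two-sided p of 0.0571, and 0.555 after adjustment over all probe sets. The call was lost among the measured probe sets alone, with a proportion of 0.474. Of the measured probe sets, 122 (3.25%) had a log2 fold change as low or lower. Insig2 has another probe set with a higher mean that was unmeasured, so that the gene does not count as called in the tally of 38.

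No gene was called among 9 of uptake and trafficking with all arrays. Npc2, which binds cholesterol in the lysosome and passes it on, had 2 measured probe sets that leaned the same way, with log2 fold changes of 0.11 and 0.13. On 1448513_a_at, the one with the higher mean, the value was 8.26, 8.24, 8.25 and 8.35 in RA 1 to RA 4, against 8.12, 8.16, 8.24 and 8.13 in control 1 to control 4. RA 2 lay just below control 3, and all other RA arrays lay above all control arrays. The 95% interval was 0.02 to 0.20, with a proportion of false positives of 0.066, or 0.0463 and a call as higher without control 3 (adjusted p = 0.416 from limma, exact permutation test two-sided p = 0.0571). Lrp1, a large endocytic receptor that takes up lipoproteins with apolipoprotein E, had a log2 value of 8.48, 8.80, 8.30 and 8.54 in RA 1 to RA 4, against 8.63, 8.20, 8.40 and 8.59 in control 1 to control 4. These groups overlapped throughout, with a log2 fold change of 0.07 and a 95% interval of -0.26 to 0.40 (adjusted p = 0.879 from limma). Scarb1, the remaining measured gene of this list, had a log2 fold change of 0.03 with a 95% interval of -0.04 to 0.10. Another probe set of Scarb1, with a higher mean, was unmeasured.

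Among 12 genes of efflux and turnover, Ch25h, which adds a hydroxyl group to cholesterol and yields a sterol that restrains SREBP processing, was called higher (proportion of false positives 0.0286). The log2 value was 6.42, 5.79, 5.54 and 5.63 in RA 1 to RA 4, against 5.45, 5.70, 5.53 and 5.44 in control 1 to control 4. RA 1 lay far above all other arrays, and control 2 lay above RA 3 and RA 4. The log2 fold change was 0.32 with a standard error of 0.199 and a 95% interval of -0.16 to 0.79 (adjusted p = 0.628 from limma). Without RA 1 it was 0.12, and the call was lost (proportion of false positives 0.225). It was also lost without RA 2, RA 3 or RA 4 (0.124, 0.0717 and 0.0695) and among the measured probe sets alone. The Ch25h means, 5.84 in the RA group and 5.53 in the control group, lay near or below the array medians of 5.829 to 5.835. The filter on low means left this probe set out. The remaining measured genes of this list, the sterol transporter Abca1, the lipoprotein components Apoe and Clu and Cyp46a1, the neuronal enzyme that turns cholesterol into a form that leaves the brain, were not called.

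**Figure D4:**
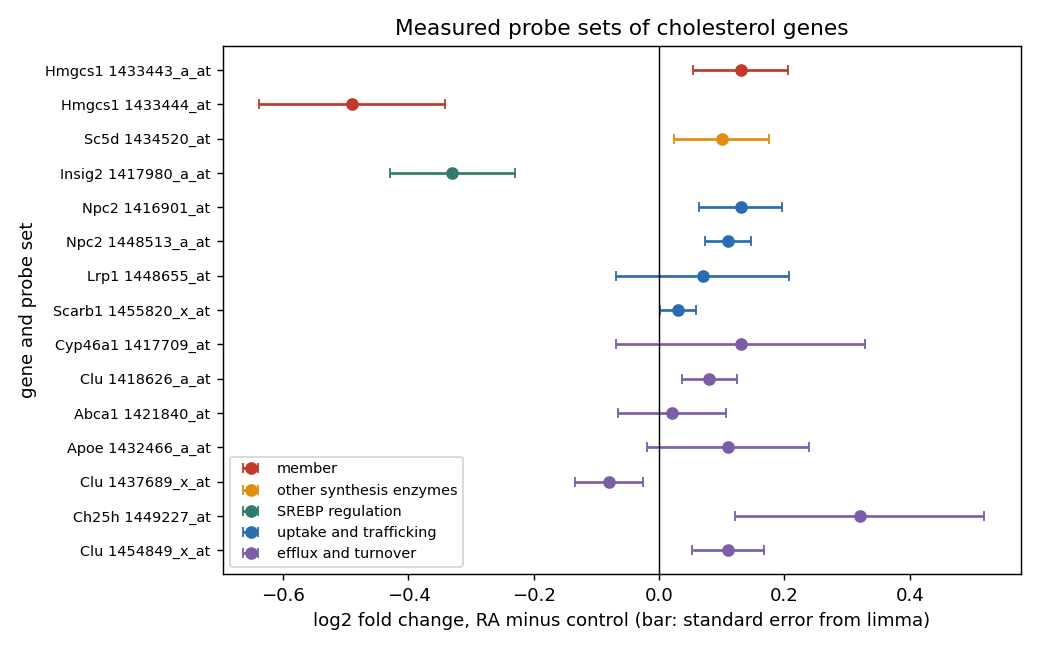
Log2 fold change between the RA and control groups (n = 4 each) for every measured probe set of the members and of the 4 pathway lists, with bars for the standard error from limma and colours for the lists. The values run from -0.49 for Hmgcs1 1433444_at and -0.33 for Insig2 to 0.32 for Ch25h, and most lie between 0 and 0.13.

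The genes whose measured values followed Hmgcs1 most closely were Serinc3, Gria3, Mef2a, Prxl2a and Tm9sf2. Likeness was the Pearson correlation over the 8 arrays with the mean of the 2 centred Hmgcs1 probe sets, a profile dominated by 1433444_at, among 3407 measured probe sets of other genes. It was 0.93 for Serinc3, a serine incorporator, 0.91 for Gria3, an AMPA receptor subunit, 0.90 for the transcription factor Mef2a and for Prxl2a, and 0.86 for Tm9sf2. The log2 fold changes of these probe sets lay between -0.35 and -0.17, as their choice by a profile that is lower in the RA group would favour. Another measured probe set of Prxl2a gave 0.07, and the measured probe sets of Serinc3 ran from -0.65 to -0.02.

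The hippocampal tissue was checked against marker lists, averaged as log2 values over their measured probe sets. Neuronal markers, measured in 6 of 7 genes with a probe set, lay at 8.19 to 8.51 in the RA group and 8.25 to 8.61 in the control group, and 2 of the 7 genes were called lower. Oligodendrocyte markers, measured in 9 of 9 genes, lay at 8.02 to 9.32 in the RA group and 8.17 to 9.42 in the control group, and 1 was called lower. Both lists were highest in control 2, which was also the highest array of Hmgcs1 1433444_at, and lowest in RA 2, whereas RA 4 was the lowest array of that probe set. Astrocyte markers, measured in 8 of 10 genes, lay at 8.40 to 8.47 in the RA group and 8.23 to 8.40 in the control group, and 1 was called higher. Counted in the same way, 1.34% of all named genes were called higher and 0.511% lower. With any probe set counted, 2 neuronal and 3 oligodendrocyte genes were called lower and 4 astrocyte genes higher. A share over all genes was not computed for that count, which grows with the number of probe sets per gene. It is therefore not read as a shift of these cell types. Microglial markers were measured in only 3 of 7 genes with a probe set, and none was called. They lay at 8.26 to 8.49 in the RA group and 8.02 to 8.40 in the control group. Choroid plexus markers had a mean of 7.49, 6.004, 8.55 and 8.95 in RA 1 to RA 4, against 6.16, 6.18, 9.18 and 6.25 in control 1 to control 4. All 10 choroid plexus genes with a probe set were called higher, although the highest array was control 3 and the lowest was RA 2. Of the other lists 5 of 8 meningeal, 3 of 6 thalamic, 2 of 5 oligodendrocyte precursor and 1 of 6 endothelial genes were called higher, against the 1.34% of all named genes given above. The part of these cell types in the values of Hmgcs1, Insig2 and Ch25h was not tested.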

How the data were processed

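Hippocampal RNA of 4 RA and 4 control samples was hybridised to Affymetrix mouse arrays. The authors deposited 1 log2 value per probe set and array, computed with FARMS, and these were used with no further scaling. How the arrays were scaled to each other was not given in the sources used here. After 64 manufacturer control probe sets were left out, 45037 remained. Symbols of the platform annotation were updated to GRCm38.p6 through the gene number (34741 probe sets) or kept as listed (204), and 932 probe sets naming several genes and 9160 naming none were tested without a name. Each array took its group and number from its label.

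The rank product was written in Python 3.11.15 for 2 unpaired groups, with 16 pairs of an RA and a control array, 100 permutations of values within arrays and a threshold of 0.05. limma 3.58.1 in R 4.3.3 gave log2 fold changes, standard errors, intervals and Benjamini-Hochberg adjusted p-values. Exact permutation tests ran over all 70 assignments of the arrays. All fits covered the whole table and were tested on simulated data. The genes named are the 8 members, the called genes of each pathway list or, where none was called, the 2 measured genes (or the only one) with the largest change, and the 5 genes of closest pattern. The other measured genes of the lists (Scarb1, Abca1, Apoe, Clu, Cyp46a1) were named after their values were seen. The members and lists were chosen with earlier results of these data known. Alternatives covered scaling, filters, thresholds, tests, moderation, array weights, a replicate block and the omission of each array. The number of arrays limits the precision of every value.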

Additional observations from a re-analysis of the deposited data

How the results depend on the processing

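Hmgcs1 1433444_at kept its call as lower without any 1 array (proportion of false positives at most 0.0165, log2 fold change -0.58 to -0.39), and lost it among measured probe sets alone (0.168). With limma its adjusted p was 0.0265 after quantile normalization and 0.0143 after subtraction of array medians (log2 fold change -0.49 in both), but limma then called 28543 and 41443 probe sets, of which 28292 and 41093 were unmeasured, since these scalings shift the nearly constant values of all probe sets. Its exact permutation p, two-sided, was 0.0286 after quantile normalization and 0.0571, as without scaling, after subtraction of array medians. The median over the measured members turned to 0.13 with 1 probe set per gene. The log2 fold change of 1433443_a_at stayed between 0.07 and 0.20, uncalled, in all alternatives. Insig2 1417980_a_at kept its call without any 1 array (at most 0.0412), with adjusted p of 0.0253 and 0.013 from limma under the same scalings. For Npc2 1448513_a_at these were 0.0569 and 0.0224. The log2 fold change of Lrp1 was -0.01 to 0.15 without 1 array, below 0 without RA 2 or control 2.

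Over all probe sets, 409 were called higher and 260 lower. Calls higher numbered 50 with the filter on low means, 58 with the replicate block, 26 at a threshold of 0.01 and 17 to 970 without 1 array. Calls lower numbered 155 at 0.01 and 136 to 317 without 1 array. Among measured probe sets alone 4 were called higher and 17 lower. limma called 0 in each direction, member and pathway genes included, and so did the methods' t-test after Benjamini-Hochberg adjustment, which called 1976 higher and 2119 lower unadjusted, among them Hmgcs1 1433444_at lower, 5 member probe sets higher and 2 pathway genes higher. These 5 were all unmeasured, with log2 differences of at most 0.000298, and give no measure of a change. The call of 1 member as lower fell to 0 among measured probe sets, with limma and with the adjusted t-test. Pathway genes called higher numbered 0 with the filter on low means, among measured probe sets and at 0.01, and 0 to 2 without 1 array, and 1 was called lower when every probe set counted towards its gene. Whether the array numbers pair the samples is not known (correlations of deviations -0.393 to 0.448 between arrays of the same number). With the replicate block the proportion for Hmgcs1 1433444_at was 0.000588, with the same call.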
